A study of Sus scrofa with 24 samples.

Results

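Liver gene expression was compared between castrated boars that had been given testosterone by injection and uncastrated boars that had their own testes and no injected testosterone. Testosterone levels in the blood of these pigs are not analysed here. The castrated boars had received Sustanon, a mixture of testosterone esters, in repeated intramuscular injections at 4 mg/kg (pigs 1, 2 and 3). The uncastrated boars had received no Sustanon. Pigs 25 and 27 were untreated. Pigs 22, 23 and 24 had received Myodin, an ester of the anabolic steroid nandrolone, in repeated intramuscular injections at 5 mg/kg. These 8 pigs, 3 against 5, were chosen by sex status and treatment in the labels, out of 24 pigs in all. The question was which liver genes differed between high injected testosterone and an intact gonad, and which were alike. All pigs were hybrids of Large White, Landrace and Duroc, and each library came from the liver of 1 pig.

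The pens followed the treatment groups, and untreated pigs were kept in a room of their own, so that injection, pen and room cannot be told apart in these samples. Myodin was present in 3 of the 5 uncastrated boars and in none of the castrated Sustanon boars. The further groups given beside the comparison were 3 untreated castrated boars, 2 castrated boars with Myodin, 2 uncastrated boars with Sustanon, and sows that were untreated, given Sustanon or given Myodin, with 3 in each. Testes make other steroids beside testosterone, among them androstenone. Castration here means that the testes had been removed.

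Testosterone acts on liver cells directly and also through the pituitary, since sex steroids set the pattern of growth hormone release, to which many sex-dependent liver genes respond. In pigs, the liver also clears the testicular pheromone androstenone and the gut product skatole, the main compounds of boar taint.

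Totals were between 9926461 and 11556202 counts in the castrated Sustanon boars and between 9267780 and 12359045 counts in the uncastrated boars, within the range of all 24 libraries (9267780 to 14017276). KDM5D, a gene of the Y chromosome, had 56 to 62 counts in the former and 48 to 80 in the latter, as the labels require. It went against the label in 3 other libraries, with 0 counts in the library labelled untreated castrated boar 15, and 35 and 95 counts in the libraries labelled untreated sow 16 and untreated sow 18. Counts of calls that use these libraries are given with and without them, as are called fold changes of single genes against untreated castrated boars. CPM values of untreated castrated boars include boar 15, which comes last where 3 values are given. Hepatocyte markers were present throughout, and of the marker genes of other tissues, all 5 of skeletal muscle averaged under 1 CPM (the counts of a gene scaled to its library's size, with sizes set by the TMM method of edgeR) and the pancreas marker CLPS was at 0. Correlations of log2 CPM across genes were 0.949 to 0.978 for the 15 pairs of a castrated Sustanon boar with an uncastrated boar. Within the uncastrated boars they were 0.949 to 0.98 (10 pairs), and within the castrated Sustanon boars 0.965 to 0.976 (3 pairs). The ranges across and within groups overlapped; genes are not independent replicates, and pairs share pigs.

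No gene was called different between castrated boars with Sustanon and uncastrated boars without it. To be called, a gene needed an adjusted p under 0.05 (quasi-likelihood test of edgeR, Benjamini-Hochberg adjustment over every gene tested) and a log2 fold change of 1 or more in either direction. Of 8754 genes tested, 0 (0%) passed, and the smallest adjusted p was 0.0855, for NR4A1. At an unadjusted p under 0.05 there were 465 genes (5.31%), 177 higher (2.02%) and 288 lower (3.29%) in the castrated Sustanon boars. A log2 fold change of 1 or more in either direction was estimated for 242 genes (2.76%). DESeq2 called 5 genes on the same counts, and edgeR called 3 when the 8 libraries were fitted alone. For scale, in the same fit Sustanon against no treatment in castrated boars gave 15 calls (0.171%), and uncastrated boars without Sustanon against untreated castrated boars gave 67 (0.765%). Without the 3 libraries that went against their labels those counts were 0 and 9, and without untreated castrated boar 14 alone they were 0 and 8.

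A missing call does not show that a gene is alike, so the 95% interval of each log2 fold change was used. A gene was taken as alike when that interval lay between -1 and 1, that is within a 2-fold difference in either direction, and as undecided when it did not. By this measure 6627 of the 8754 genes (75.7%) were alike and 2127 (24.3%) were undecided. Within 1.5-fold there were 4149 genes (47.4%). The median distance from estimate to interval end was 0.44 on the log2 scale, and the median log2 fold change over all genes was -0.01. Values of the 3 castrated Sustanon boars lay apart from those of all 5 uncastrated boars in 208 genes (2.38%), above in 106 (1.21%) and below in 102 (1.17%).

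Of the 67 genes that were called between uncastrated boars without Sustanon and untreated castrated boars, 29 (43.3%, against 75.7% of all genes) were alike in the main comparison and 38 were undecided. In the main comparison 11 of the 67 had an unadjusted p under 0.05, against 5.31% of all genes, and log2 fold changes reached 5.51 in either direction. Of the 10 alike genes with the largest difference from untreated castrated boars (mean log2 CPM 1 or more), 9 are described here. Both comparisons contain the same 5 uncastrated boars, so their values are not independent of each other. The choice of genes itself largely sets their likeness in the main comparison and their distance between uncastrated and untreated castrated boars.

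SOAT2, which esterifies cholesterol for lipoproteins (chr5:18358941-18371262, build Sscrofa11.1), was at 70.2, 110 and 71.9 CPM in the castrated Sustanon boars. It was at 82.2 and 67.3 CPM in untreated uncastrated boars and at 30.6, 124 and 125 CPM in those with Myodin. Untreated castrated boars had 17.8, 23.6 and 16.8 CPM, below every pig of either group. Castrated Sustanon boars differed from uncastrated boars by -0.03 on the log2 scale (95% interval -0.75 to 0.68), while uncastrated boars differed from untreated castrated boars by 2.15 (adjusted p = 0.00777, edgeR). SOAT2 was undecided without Sustanon pig 2, without Myodin pigs 23 and 24, and with the untreated uncastrated boars alone.

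KCNN2, a calcium-activated potassium channel (chr2:118439328-118882299), went the other way. It was at 45.1, 37.7 and 45.6 CPM with Sustanon and at 57.0, 23.1, 45.8, 47.0 and 38.8 CPM in uncastrated boars 22, 23, 24, 25 and 27. In untreated castrated boars it was at 103, 131 and 87.5 CPM. The Sustanon pigs lay inside the range of the uncastrated boars, and the log2 fold change was 0.02 (95% interval -0.42 to 0.45). KCNN2 was alike in all 17 alternative settings in which an interval could be given.

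RIPK3, a kinase of necroptosis, was at 92.6, 42.4 and 51.3 CPM with Sustanon and between 35.6 and 89.7 CPM in uncastrated boars, against 141, 203 and 148 CPM in untreated castrated boars. Its log2 fold change was 0.11 (95% interval -0.46 to 0.68). CRELD2, a chaperone of the endoplasmic reticulum, had 101, 80.6 and 69.1 CPM with Sustanon and 38.2 to 112 CPM in uncastrated boars, but 28.9, 26.8 and 33.2 CPM in untreated castrated boars (log2 fold change 0.08, 95% interval -0.54 to 0.71). TTC36, a gene expressed in liver and kidney, had 29.0, 40.6 and 46.7 CPM with Sustanon and 26.9 to 41.7 CPM in uncastrated boars, against 86.9 to 115 CPM in untreated castrated boars. For each of these 3 genes the Sustanon and uncastrated groups overlapped and every untreated castrated boar lay outside both. TTC36 was alike in 14 of 17 alternative settings. It was undecided against the Myodin boars alone, without Sustanon pig 1, and without Myodin pigs 23 and 24. RIPK3 and CRELD2 were alike in 16 settings each.

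The other 4 were PRKD1 (log2 fold change 0.10), a protein kinase D, RAI2 (0.12), a nuclear protein induced by retinoic acid, PANX1 (-0.20), a membrane channel that releases ATP, and the gene listed only as ENSSSCG00000002953 (-0.21). PRKD1 was alike in 8 of 17 alternative settings and PANX1 in 9. RAI2 was alike in 15 settings and ENSSSCG00000002953 in all 17. Without the 3 libraries that went against their labels, all 9 kept the sign of their difference between uncastrated and untreated castrated boars, at log2 fold changes between -1.72 (RAI2) and 2.06 (SOAT2), but only KCNN2 was still called (-1.46, adjusted p = 0.0248), with SOAT2 at an adjusted p of 0.0627 (edgeR).

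**Figure D1:**
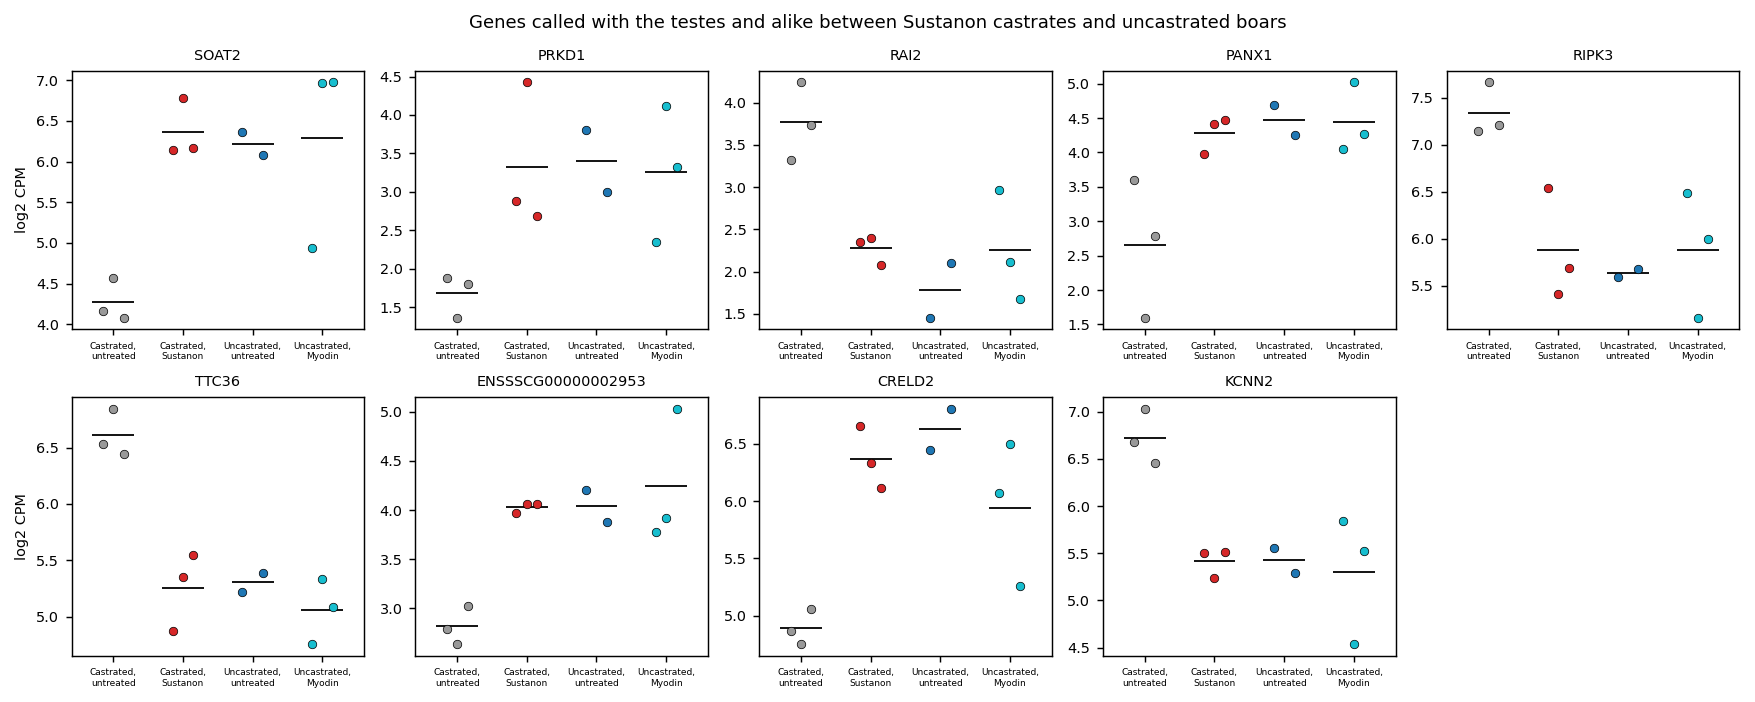
Expression (log2 CPM, vertical axis, each panel with its own range) of 9 genes in each pig of 4 groups, namely untreated castrated, castrated with Sustanon, untreated uncastrated and uncastrated with Myodin boars. Points are pigs and lines are group means. Sustanon castrates overlap the uncastrated boars in every panel, as for KCNN2 at 37.7 to 45.6 CPM. Untreated castrates lie apart from the Sustanon castrates. The genes were chosen as called between uncastrated and untreated castrated boars and alike in the main comparison, which largely sets this pattern.

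The study had selected a panel of 16 genes as markers of testosterone treatment on these same pigs, so the panel is not an independent list here; 15 of its genes were tested. In the main comparison 0 of the 15 were called, and 0 had an unadjusted p under 0.05, against 5.31% of all genes. Against the Myodin boars alone 5 were higher and 0 lower at such a p (median log2 fold change 0.637). Against the untreated uncastrated boars alone 1 was higher and 0 lower (median -0.015). By the interval, 6 were alike in the main comparison (40%, against 75.7% of all genes) and 9 were undecided. The 6 were ITPR3, an intracellular calcium channel, TERF2, a telomere-binding protein, DHDH, a dihydrodiol dehydrogenase, KCNB2, a potassium channel, PPL, the cytoskeletal linker periplakin, and B3GNT8, a glycosyltransferase.

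TERF2 (chr6:17605748-17631795) was at 130, 152 and 92.3 CPM with Sustanon and at 90.5, 116, 118, 124 and 114 CPM in uncastrated boars 22, 23, 24, 25 and 27. Untreated castrated boars had 50.5, 54.7 and 57.3 CPM, lower than all of them. The log2 fold change was 0.15 (95% interval -0.21 to 0.51), and TERF2 was alike in all 17 settings, as were ITPR3, DHDH and PPL. KCNB2 was undecided in 1 setting, without Sustanon pig 2, and B3GNT8 in 7.

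Of the undecided panel genes, some had estimates near 0 with wide intervals and others did not. THEM5, an acyl-CoA thioesterase (chr4:97319579-97358602), was at 17.8, 7.67 and 6.52 CPM with Sustanon. It was at 24.7 and 18.1 CPM in untreated uncastrated boars but at 2.38, 5.28 and 2.73 CPM in those with Myodin, so that the Sustanon pigs lay between these boars. Untreated castrated boars had 0, 2 and 2 counts. The log2 fold change was 0.01 (95% interval -1.39 to 1.41); it was -1.0 against the untreated boars alone and 1.63 against the Myodin boars alone.

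MAPK4, an atypical mitogen-activated protein kinase (chr1:100107429-100291594), had the same order of group means. It was at 10, 10.2 and 3.70 CPM with Sustanon, 11.9 and 7.04 CPM in untreated uncastrated boars, 1.38, 4.99 and 1.07 CPM with Myodin, and 2, 1 and 2 counts in untreated castrated boars. Single pigs overlapped, with Sustanon pig 3 below Myodin boar 23. The log2 fold change was 0.59 (95% interval -0.45 to 1.62), with -0.26 against untreated and 1.68 against Myodin boars. CACNA1H, a voltage-gated calcium channel, also differed by kind of boar, with log2 fold changes of -0.47 and 1.32 respectively. Between Myodin and untreated uncastrated boars 2 genes (0.0228%) were called over all genes and none of the panel; log2 fold changes were -2.63 for THEM5 (adjusted p = 0.192, edgeR), -1.94 for MAPK4 (adjusted p = 0.192) and -1.79 for CACNA1H (adjusted p = 0.304).

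DHRS4, a carbonyl reductase that acts on retinoids and steroids (chr7:75242121-75255594), was at 2270, 1970 and 1635 CPM with Sustanon and at 1038, 1574, 1167, 1686 and 1123 CPM in uncastrated boars 22, 23, 24, 25 and 27. Its log2 fold change of 0.57 (95% interval -0.04 to 1.19, adjusted p = 0.96) left it undecided in all settings. Reads of DHRS4, GLYATL2 and the HSD17B and FMO genes may be shared with close relatives, as the handling of such reads is not given in the sources used here. TINAG, an extracellular matrix protein, DUOX1, an NADPH oxidase, and PLB1, a phospholipase, were under 3 CPM in every pig of the main comparison. TINAG and PLB1 had estimates of -0.05 and -0.08 with intervals of -1.53 to 1.42 and -2.49 to 2.32. DUOX1 had the lowest estimate of the panel, -1.60 (95% interval -3.40 to 0.20), at 0.32 ± 0.23 against 0.94 ± 1.03 CPM (SD). GLYATL2, a glycine acyltransferase, had the highest, 1.26 (95% interval -0.09 to 2.61), at 1.75, 13.7 and 1.5 CPM with Sustanon and 0.768 to 5.75 CPM in uncastrated boars, and without Sustanon pig 2 its estimate was -0.51. ASB4, an adaptor of ubiquitin ligases, was at 0.69 (95% interval -0.39 to 1.76).

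**Figure D2:**
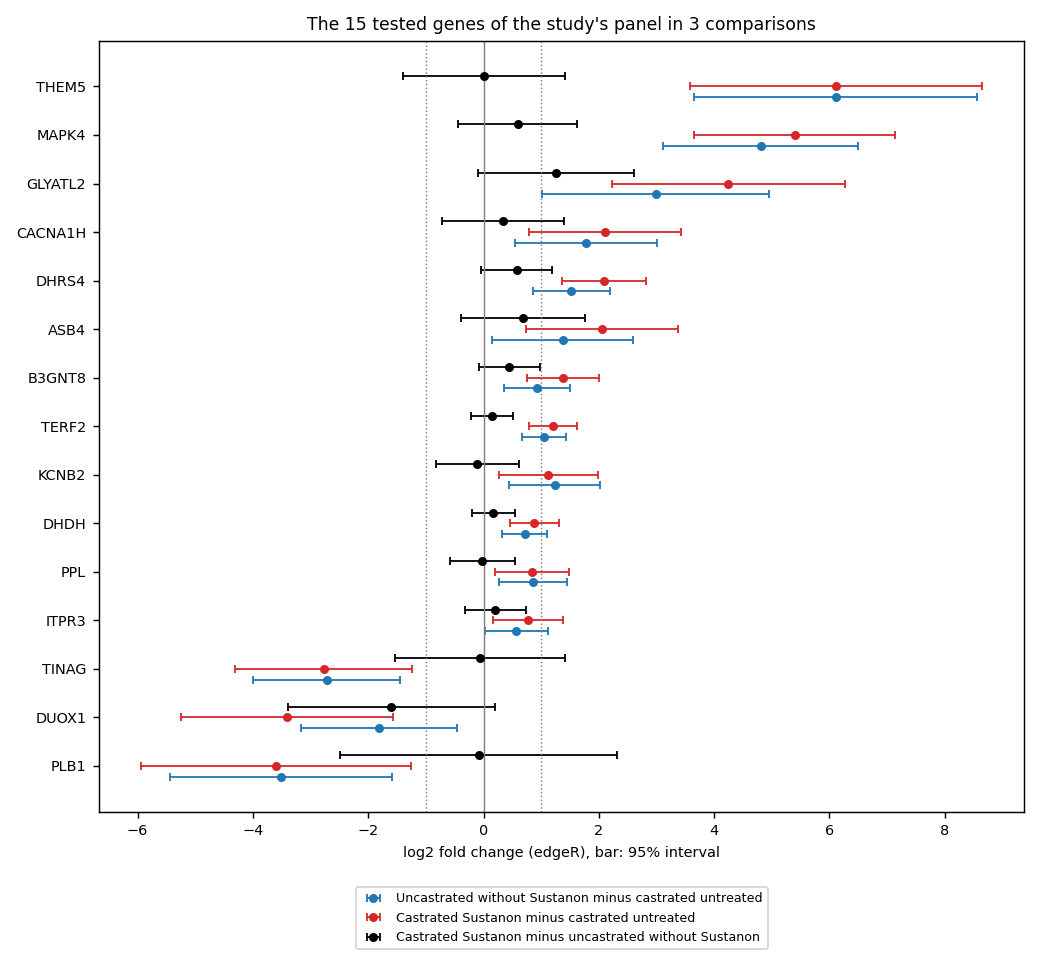
Log2 fold change (horizontal axis, edgeR) with its 95% interval for the 15 tested panel genes in 3 comparisons, castrated with Sustanon against uncastrated without (black), castrated with Sustanon against untreated castrated (red), and uncastrated without Sustanon against untreated castrated (blue); dotted lines mark a 2-fold difference. Black points lie nearer 0 than red ones for every gene, and the comparisons share pigs; THEM5 is at 0.01 in black and above 6 in the other two.

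The 15 genes called with Sustanon against no treatment in castrated boars, 8 higher (0.0914% of all genes) and 7 lower (0.08%), were then followed. In the main comparison, which shares the 3 Sustanon pigs, 9 were alike (60%, against 75.7% of all genes) and 6 undecided. The largest log2 fold change in either direction was 0.59, and 1 gene had an unadjusted p under 0.05, against 5.31% of all genes. This gene was ORAI3, a calcium entry channel, at 22.4, 19.7 and 22 CPM with Sustanon. Uncastrated boars 22, 23, 24, 25 and 27 had 34.5, 31.9, 29.0, 27.1 and 30.4 CPM. The groups did not overlap, and the log2 fold change was -0.52 (95% interval -0.91 to -0.13, adjusted p = 0.888). With this interval ORAI3 also met the measure for alike.

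Uncastrated boars without Sustanon against untreated sows share no library with the comparison of castrated boars that called these 15 genes, but they hold the same 5 uncastrated boars as the main comparison. The sows also differ from the boars in sex, and for the counts of signs below no share over all genes is given. All 15 had the same sign there, 14 had an unadjusted p under 0.05 (14.4% of all genes did), and 9 were called, of 57 calls (0.651%) over all genes. The 9 were SOAT2, DHRS4, TERF2, MAPK4, THEM5, FMO5, KCNN2, PLAAT5 and EVA1A. Without the libraries that went against their labels, which leaves 1 untreated sow, 14 of 15 had the same sign, 13 had an unadjusted p under 0.05 (8.89% of all genes) and 0 were called. In uncastrated against castrated boars with Myodin, 12 of 15 had the same sign and 3 an unadjusted p under 0.05, against 12.8% of all genes.

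DIO1, which converts thyroxine to the active thyroid hormone (chr6:158376744-158392745), is an example of this group. It was at 166, 230 and 202 CPM in castrated Sustanon boars and at 98.0, 198, 96.6, 196 and 150 CPM in uncastrated boars 22, 23, 24, 25 and 27, against 54.1, 35.0 and 26.5 CPM in untreated castrated boars. In the main comparison its log2 fold change was 0.43 (95% interval -0.31 to 1.18). EVA1A, a regulator of autophagy, was at 419, 482 and 420 CPM with Sustanon and between 330 and 604 CPM in uncastrated boars, with a log2 fold change of 0.04 (95% interval -0.35 to 0.44), against 142 to 243 CPM in untreated castrated boars. CDKN3, a phosphatase of cyclin-dependent kinases, was at 4.59, 5.29 and 5.64 CPM with Sustanon and 3.82 to 5.75 CPM in uncastrated boars. Untreated castrated boars were above both groups, at 10.2 to 11.9 CPM. PLAAT5, a phospholipid acyltransferase, had 0 counts in all 3 untreated castrated boars and 1.75, 3.78 and 1.06 CPM with Sustanon, against 0.384, 3.39, 3.03, 1.77 and 1.31 CPM in uncastrated boars 22, 23, 24, 25 and 27.

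The 16 genes of smallest p in the main comparison, 8 in each direction, came next; none was called. NR4A1, an orphan nuclear receptor of the immediate early response (chr5:17403088-17407918, listed as a pseudogene in the annotation used), was at 33.6, 23.5 and 25.1 CPM in the castrated Sustanon boars. Uncastrated boars 22, 23, 24, 25 and 27 had 7.52, 4.34, 6.25, 6.63 and 9.25 CPM. The groups did not overlap, and the log2 fold change was 2.01 (95% interval 1.29 to 2.73, adjusted p = 0.0855). DESeq2 called it, with an adjusted p of 0.00016, as did edgeR on the 8 libraries alone (0.0225).

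NR4A1 was also at 10.8, 22.1 and 21.6 CPM in untreated castrated boars, above all 5 uncastrated boars. Sustanon against no treatment in castrated boars gave 0.59 (adjusted p = 0.614), and uncastrated against untreated castrated boars gave -1.42 (adjusted p = 0.0476). Without the 3 libraries that went against their labels the latter was -1.27 (adjusted p = 0.175) and not called. Over the whole series, the 7 uncastrated boars, 2 of them with Sustanon, were at 3.51 to 9.25 CPM and the 17 other pigs at 9.28 to 33.6 CPM. Of 8754 genes, 3 (0.0343%) parted these groups without overlap, all lower in uncastrated boars, namely NR4A1, EHBP1, which links endocytic vesicles to actin, and SYAP1, a synapse-associated protein; this split was chosen after the values had been seen.

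HSPA6, an inducible heat shock protein of the HSP70 family (chr4:88970592-88973109), had the largest difference of the 16. It was at 53.1, 53.4 and 75.9 CPM with Sustanon and at 2.92, 3.58, 1.07, 3.54 and 3.82 CPM in uncastrated boars 22, 23, 24, 25 and 27. The log2 fold change was 4.34 (95% interval 2.53 to 6.15, adjusted p = 0.272), and both DESeq2 and edgeR on the 8 libraries alone called it. Untreated castrated boars varied widely, with 6.52, 16 and 59.4 CPM, each above every uncastrated boar. Its reads may be shared with other HSP70 genes.

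FOS, a subunit of the immediate early transcription factor AP-1 (chr7:98449508-98451971), was at 222, 196 and 240 CPM with Sustanon and at 46.8, 84.5, 132, 67.1 and 121 CPM in uncastrated boars 22, 23, 24, 25 and 27. The groups did not overlap (log2 fold change 1.28, 95% interval 0.59 to 1.98, adjusted p = 0.746). Untreated castrated boars were at 79.3, 155 and 158 CPM, all below the Sustanon pigs and with boar 13 inside the range of the uncastrated boars. Of the same list of 27 stress and immediate early genes, EGR1 (177 ± 40.9 against 94.5 ± 23.4 CPM, SD, n = 3 and 5) and FOSB (34.9 ± 13 against 9.57 ± 7.35 CPM), also early transcription factors, were higher at an unadjusted p under 0.05. MT1A, a metal-binding metallothionein, was lower (1204 ± 282 against 2321 ± 1066 CPM). The median log2 fold change of the list was 0.07.

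APOLD1, an early response gene of endothelium, was at 8.93, 16.4 and 7.93 CPM with Sustanon, 2.15 to 3.52 CPM in uncastrated boars and 3.65 to 4.22 CPM in untreated castrated boars (log2 fold change 1.97, 95% interval 1.08 to 2.87, adjusted p = 0.359; called by DESeq2). TPCN2, a lysosomal cation channel, was at 54.7, 43.7 and 40.2 CPM with Sustanon and 18.3 to 22.7 CPM in uncastrated boars, with untreated castrated boars at 17.8, 23.5 and 43.2 CPM. It was called by edgeR on the 8 libraries alone (log2 fold change 1.23). In the other 3 genes that were higher, log2 fold changes were 0.92 for CNKSR3, a scaffold of sodium channel regulation, 0.65 for TMEM38B, an intracellular potassium channel, and 0.55 for SLCO2B1, an uptake carrier of steroid sulfates and other organic anions. SLCO2B1, with an interval of 0.25 to 0.85, also met the measure for alike.

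IL15, a cytokine that sustains natural killer and memory T cells (chr8:85666963-85740980), was the lower gene of smallest p. It was at 3, 3.13 and 4.76 CPM with Sustanon and at 7.22, 6.03, 11, 8.84 and 6.14 CPM in uncastrated boars 22, 23, 24, 25 and 27. The groups did not overlap, and the log2 fold change was -1.11 (95% interval -1.58 to -0.63, adjusted p = 0.272; called by DESeq2 at 0.0374). Untreated castrated boars had 2.81, 1.94 and 2.23 CPM, below every uncastrated boar and every Sustanon pig. Uncastrated boars without Sustanon were higher than untreated castrated boars by 1.75 on the log2 scale, a called difference (adjusted p = 0.00361) that was still called without the libraries that went against their labels (1.72, adjusted p = 0.0272), while Sustanon against no treatment in castrated boars gave 0.64 (adjusted p = 0.329). Over all pigs, the 7 uncastrated boars were at 3.68 to 11 CPM and the 17 others at 1.94 to 4.76 CPM.

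FCN2, a ficolin that starts the lectin pathway of complement (chr1:274106276-274111970), was at 119, 75.9 and 97.5 CPM with Sustanon and at 236, 118, 292, 334 and 317 CPM in uncastrated boars 22, 23, 24, 25 and 27. Myodin boar 23 overlapped the Sustanon pigs. The log2 fold change was -1.41 (95% interval -2.11 to -0.72, adjusted p = 0.695), and DESeq2 called it (0.0265). TNFRSF1B, a receptor of tumour necrosis factor, was at 67.2, 68.7 and 65.7 CPM with Sustanon, 75.2 to 133 CPM in uncastrated boars and 59.3 to 65.1 CPM in untreated castrated boars (log2 fold change -0.54, adjusted p = 0.746). GZMH, a granzyme of cytotoxic lymphocytes, had the largest negative difference of the 16, -2.30, but its values in uncastrated boars ran from 1.61 to 21.2 CPM with Myodin pigs 23 and 24 at the top. Without these pigs GZMH was at -0.51 and ARHGDIB, also highest in them (44.1 and 52.8 CPM), at -0.50. The other 4 lower genes were ARHGDIB (-0.86), a signalling inhibitor of leukocytes, TLNRD1 (-0.74), an actin-bundling protein, ST6GALNAC4 (-0.95), a sialyltransferase, and PPT1 (-0.50), a lysosomal thioesterase.

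**Figure D3:**
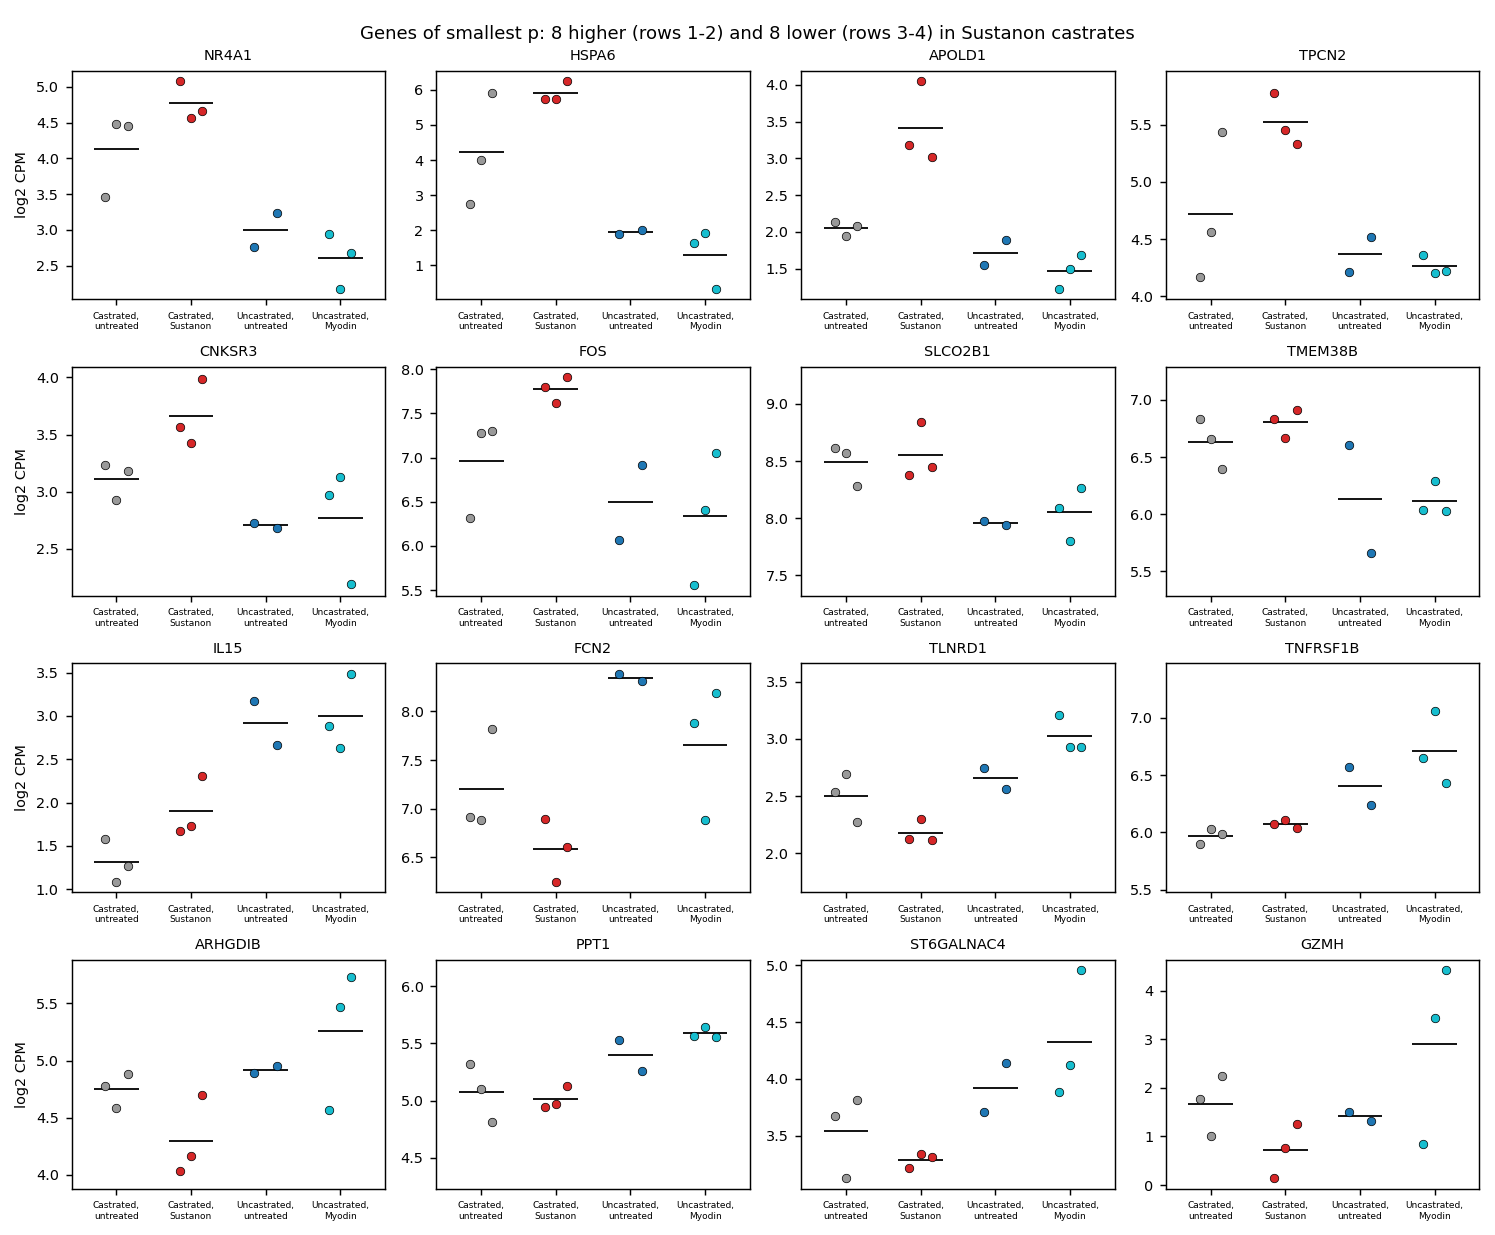
Expression (log2 CPM, vertical axis, each panel with its own range) in each pig of 4 groups for the 16 genes of smallest p, the upper 2 rows higher and the lower 2 rows lower in castrated Sustanon boars than in uncastrated boars without Sustanon; points are pigs and lines group means. NR4A1 and HSPA6 are low in all uncastrated boars and higher in castrated boars with or without Sustanon, and IL15 is highest in the uncastrated boars.

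A second set of pigs that shares no library with the main comparison also sets Sustanon without testes against testes, namely sows with Sustanon against uncastrated boars with Sustanon. There the boars also had Sustanon and the sows differ in sex. The sign was the same for 13 of the 16 genes (81.2%, against 55.3% over all genes), for 6 of 8 higher and 7 of 8 lower genes, and 5 had the same sign with an unadjusted p under 0.05, as had 259 of all 8754 genes (in either sign, 4.97% of all genes had such a p). NR4A1 was higher by 1.83 and HSPA6 by 4.21 on the log2 scale, and IL15 was lower by 0.63 (log2 fold change -0.63). HSPA6 varied widely there, at 35.9, 2.10 and 108 CPM in sows 4, 5 and 6 against 3.42 and 1.79 CPM in boars 19 and 20, with sow 5 inside the range of the boars. In that comparison 1 gene (0.0114%) was called over all genes, and none of the 16; without the 3 libraries that went against their labels there were 14 calls, none of the 16, and DESeq2 made 24, of which NR4A1 was among the 16. The Sustanon effect itself could be set between castrated and uncastrated boars, and 0 genes were called for that difference, with 595 (6.8%) at an unadjusted p under 0.05 (edgeR).

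The remaining results are by gene list. The lists were compiled by hand, no list was tested as a whole, and in 31 lists 0 members were called in the main comparison (DESeq2 called FCN2). In the boar taint list 12 genes were tested and 7 were alike. CYP2A19, which clears skatole, averaged 54.5 ± 65.9 CPM in the 3 Sustanon pigs and 104 ± 133 CPM in the 5 uncastrated boars (SD), against 1255 ± 624 CPM in untreated castrated boars, and was undecided because of its spread (log2 fold change -0.94, 95% interval -3.53 to 1.66). CYP1A2, another skatole enzyme, was at 53.2 ± 32.2 against 156 ± 117 CPM (log2 fold change -1.55, 95% interval -3.21 to 0.11). FMO5, a flavin monooxygenase, was at 213 ± 48.6 against 290 ± 130 CPM, with 923 ± 183 CPM in untreated castrated boars.

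Among 16 tested steroid dehydrogenases and reductases 12 were alike (75%) and the median log2 fold change was 0.02. HSD17B2, which inactivates testosterone and estradiol, averaged 14.3 ± 18.2 CPM in the Sustanon pigs and 31.4 ± 50.3 CPM in uncastrated boars (SD), against 374 ± 50.5 CPM in untreated castrated boars, and was undecided (log2 fold change -1.14, 95% interval -3.28 to 1.01). HSD17B4, a peroxisomal member of the family, was alike, at 646 ± 216 against 474 ± 106 CPM. SDR9C7, a dehydrogenase of retinoids, was higher at an unadjusted p under 0.05, at 16.4 ± 13.8 against 4.88 ± 4.55 CPM, with overlapping groups. Phase 1 drug enzymes were alike in 7 of 19 and phase 2 enzymes in 9 of 18; of these GSTM3, a glutathione transferase, was at 9.97 ± 6.63 against 2.53 ± 1.65 CPM (log2 fold change 1.97, adjusted p = 0.842) and ALDH1A1, which makes retinoic acid, at 1503 ± 611 against 1021 ± 220 CPM.

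Of 25 tested genes in the list of nuclear receptors and cofactors, which does not hold NR4A1, 19 were alike (76%), and 0 had an unadjusted p under 0.05. NR3C1, the glucocorticoid receptor, was alike at 62.0 ± 10.1 against 54.3 ± 9.46 CPM. In the growth hormone axis 7 of 11 were alike. IGF1, the circulating growth factor, was at 21.3 ± 8.76 against 28.6 ± 5.38 CPM and 14.9 ± 2.64 CPM in untreated castrated boars (undecided, log2 fold change -0.42), and IGFALS, its carrier subunit, was alike at 42.1 to 81.3 against 29.9 to 87.1 CPM. PAPPA2, a protease of growth factor binding proteins, was higher at an unadjusted p under 0.05 (3.58 ± 2.25 against 1.75 ± 0.69 CPM).

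In energy metabolism, all 32 tested genes of oxidative phosphorylation were alike (100%, against 75.7% of all genes), with log2 fold changes from -0.16 to 0.27. Of 22 genes of glycolysis, gluconeogenesis and glycogen 20 were alike, of 15 genes of iron and heme 14, of 17 apolipoproteins and their partners 14, of 25 genes of fatty acid oxidation 20 (80%), and of 28 genes of the urea cycle and amino acid breakdown 21 (75%). At an unadjusted p under 0.05 were SDHD (log2 fold change 0.27), a subunit of complex II, DPYS (0.63), which breaks down pyrimidines, and ACSL4 (-0.47), an acyl-CoA synthetase. These lists hold well-expressed genes with narrow intervals, and no comparison with genes of like level was made. APOB, the structural protein of very low density lipoprotein, was at 6867 ± 1070 against 5992 ± 1168 CPM, and GAPDH, a glycolytic enzyme, at 1627 ± 423 against 1727 ± 276 CPM.

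In lipid synthesis 14 of 26 genes were alike (median log2 fold change -0.08). At an unadjusted p under 0.05, 2 were lower and 1 higher. Without Myodin pigs 23 and 24, 11 were alike, 7 were lower and 0 higher at such a p, and the median was -0.275. PNPLA3, a lipid droplet hydrolase induced by feeding, was at 4.24 ± 2.24 CPM with Sustanon, 12.9 ± 6.37 CPM in uncastrated boars and 1.47 ± 0.40 CPM in untreated castrated boars (log2 fold change -1.61, 95% interval -2.95 to -0.26, adjusted p = 0.903). PLIN2, a coat protein of lipid droplets, was at 74.4 ± 19.6 against 191 ± 134 CPM, and ME1, which supplies NADPH, at 5.44 ± 0.97 against 3.30 ± 1.29 CPM. Of 19 tested genes of cholesterol synthesis and uptake, 17 had lower values with Sustanon, with a median log2 fold change of -0.30 against -0.01 over all genes; 1 had an unadjusted p under 0.05, MVD, at 31.0 ± 4.51 against 49.4 ± 13.6 CPM. Against the untreated uncastrated boars alone that median was -0.05 with 11 of 19 lower, and against the Myodin boars alone -0.49. Without Myodin pigs 23 and 24 it was -0.44 with 14 of 19 lower, 3 of them at an unadjusted p under 0.05. Of 14 bile acid genes 10 were alike; SLCO2B1, given above, and KLB, a co-receptor of the gut hormone FGF19, at 11.7 to 18.4 against 9.56 to 13.7 CPM, were higher at an unadjusted p under 0.05.

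Of 13 tested clock genes 10 had higher and 3 lower values with Sustanon, with a median log2 fold change of 0.33, and 3 had an unadjusted p under 0.05 (5.31% of all genes). TEF, a transcription factor of the clock output, was at 139 to 150 CPM with Sustanon and at 68.3 to 105 CPM in uncastrated boars, without overlap, and at 189 ± 25.9 CPM in untreated castrated boars (log2 fold change 0.69, 95% interval 0.30 to 1.08, adjusted p = 0.842). Between uncastrated and untreated castrated boars TEF was called, at -1.07 (adjusted p = 0.00767), also without the libraries that went against their labels (-1.18, adjusted p = 0.0248). DBP, of the same family, was at 27.5 ± 7.46 against 15.7 ± 7.71 CPM and BHLHE41, a repressor of the clock, at 5.07 ± 0.78 against 3.13 ± 0.87 CPM. The values of DBP overlapped, and untreated castrated boars averaged 35.3 CPM of DBP and 6.58 CPM of BHLHE41, above both groups.

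**Figure D4:**
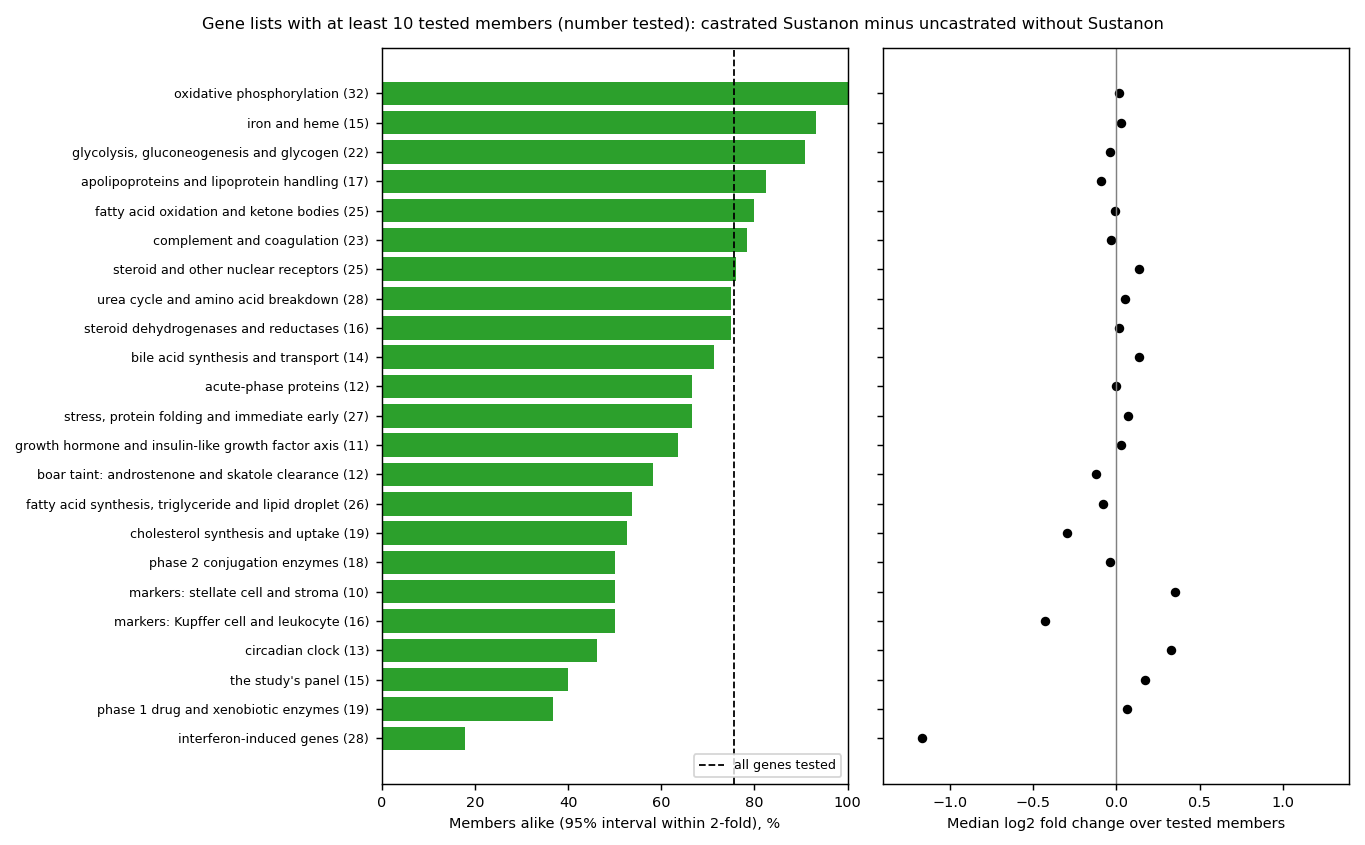
Left, the percent of tested members of each gene list that were alike, with the number tested in brackets and a dashed line at 75.7% for all genes; right, the median log2 fold change of the list, castrated Sustanon minus uncastrated without Sustanon. Oxidative phosphorylation is at 100% with a median near 0, and the interferon-induced genes are at 17.9% with the lowest median, -1.17.

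Interferon-induced genes had the lowest median of any list with 10 or more tested members, -1.17 over 28 genes. Lower values with Sustanon were found in 27, with 15 at an unadjusted p under 0.05, against 3.29% of all genes lower at such a p. By the interval 5 were alike (17.9%, against 75.7% of all genes). With the 8 libraries fitted alone, 4 had an unadjusted p under 0.05 at the same median. IFI6, a mitochondrial protein of the antiviral response, averaged 178 ± 67.8 CPM in the Sustanon pigs and 1513 ± 1956 CPM in uncastrated boars (SD), where the lowest was 209, the median 892 and the highest 4926 CPM. RSAD2, the antiviral enzyme viperin, was at 11.3 ± 4.13 against 56.8 ± 72.5 CPM with a median of 17.2 CPM in uncastrated boars, and IFITM3, which blocks virus entry, at 81.0 ± 15.7 against 361 ± 322 CPM.

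The difference rested on 2 of the 5 uncastrated boars. Mean log2 CPM over the 28 genes was 7.63 in Myodin pig 24 and 6.71 in Myodin pig 23, but 5.26, 4.89 and 5.52 in Myodin pig 22 and untreated pigs 25 and 27, and 5.16, 5.19 and 5.41 in the Sustanon pigs. Without pigs 23 and 24 the median log2 fold change of the list was 0.07, and against the untreated uncastrated boars alone it was 0.05. Among the other 16 pigs the mean ran from 4.79 to 6.63.

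**Figure D5:**
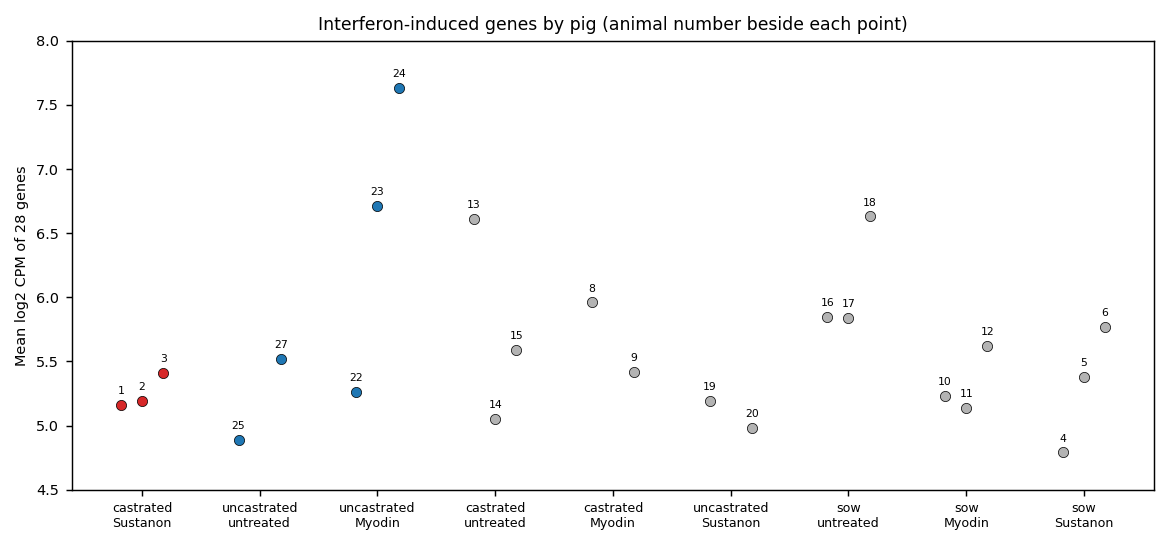
Mean log2 CPM of the 28 tested interferon-induced genes (vertical axis) in each of the 24 pigs, by group (horizontal axis). Uncastrated Myodin pigs 24 and 23 stand highest at 7.63 and 6.71, while the 3 castrated Sustanon boars, at 5.16 to 5.41, lie among the remaining uncastrated boars.

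Markers of immune cells are given beside these results, and 0 of them were called in the main comparison. In bulk liver, fewer cells of a type and less RNA per cell cannot be told apart. Of 16 tested markers of Kupffer cells and leukocytes, 15 had lower values with Sustanon (median log2 fold change -0.43). Of these, 4 had an unadjusted p under 0.05, against 3.29% of all genes lower at such a p. The 4 were NKG7 of cytotoxic lymphocytes, the T cell co-receptor CD4, and CLEC4F and VSIG4 of Kupffer cells. The summed level of the 16 markers was 555 to 616 CPM with Sustanon and 587 to 725 CPM in untreated castrated boars. In uncastrated boars it was 632 to 1010 CPM, with pigs 23 and 24 highest at 1010 and 853 CPM. None of the 16 was at 0. Without pigs 23 and 24 the median was -0.11 and 0 of the 16 had an unadjusted p under 0.05. C1QA, C1QB and C1QC, the subunits of complement C1q, and CFP, properdin, are made largely by macrophages and were lower at an unadjusted p under 0.05, with C1QB at 214 ± 21.5 against 354 ± 131 CPM. The part of these cells in the values of IL15, GZMH, ARHGDIB, FCN2, C1Q and the interferon list was not tested.

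Of 23 tested complement and coagulation genes 18 were alike, and without pigs 23 and 24 none had an unadjusted p under 0.05. Of 12 acute-phase proteins 8 were alike. Endothelial markers summed to 529 to 629 CPM with Sustanon, below the 689 to 978 CPM of uncastrated boars. At an unadjusted p under 0.05, 3 of 8 were lower, against 3.29% of all genes. These were all of sinusoidal endothelium, FCN2, CLEC4G and the hyaluronan receptor LYVE1. FCN2 alone made up 75.9 to 119 CPM and 118 to 334 CPM of these sums. All 10 tested stellate cell and stroma markers had higher values with Sustanon (median log2 fold change 0.35), at sums of 409 to 551 against 255 to 505 CPM, and 0 had an unadjusted p under 0.05; without pigs 23 and 24, 7 of 10 were higher. Hepatocyte markers summed to 119346 to 195647 against 80657 to 136833 CPM, mostly ALB, the plasma protein albumin. Bile duct markers summed to 221 to 241 against 157 to 267 CPM, with PKHD1, a protein of cilia, higher at an unadjusted p under 0.05 (log2 fold change 0.77), red blood cell markers to 1086 to 1342 against 170 to 1770 CPM, and fat markers to 43.6 to 84.3 against 25.3 to 116 CPM. The part of these shifts in the genes of smallest p was not tested.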

How the data were processed

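RNAseq counts of 24 pig livers were used, with 1 library per pig. Sequencing libraries were stranded and made from poly-A RNA; Skewer was used for trimming and STAR 2.5 for mapping to Sscrofa11.1 (submitters' processing notes and the study's methods); the counting tool is not given in the sources used here. The authors deposited raw counts of 13463 genes, without normalization, and the same libraries as log2(TPM + 1), which the authors computed; the log2 values served only for an alternative.

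Pigs were grouped by the sex status and treatment in the labels. The deposited counts were fitted in R 4.3.3 with edgeR 4.0.16 (filterByExpr, TMM, quasi-likelihood test, two-sided) in 1 model of 24 libraries and 8 levels, with untreated and Myodin uncastrated boars as 1 level and 16 residual degrees of freedom. The authors named DESeq2 for their own test. It was run as an alternative (1.42.0), as were limma 3.58.1 on log2(TPM + 1), RLE normalization, no count filter, only the 8 libraries, other sets of boars, no fold change threshold, unadjusted p and each pig left out. On simulated data the main comparison was tried with edgeR, DESeq2 and limma on log2 CPM, and the other alternatives were not tried. CPM used TMM library sizes, and log2 CPM a prior count of 2.

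Genes named are the 8 of smallest p in each direction, the panel genes, the 10 alike genes with the largest difference between uncastrated and untreated castrated boars, the genes called with Sustanon in castrated boars, and members of 31 hand-made lists at an unadjusted p under 0.05 (the interferon list by examples). List members without such a p were named for their role after their values were seen. Members and lists were chosen with earlier results of these data known. Gene symbols are those of the files (absent for 3779 genes, 359 of which took theirs from a reference table); coordinates came from the RefSeq annotation of Sscrofa11.1 by symbol, for 103 of 106 named genes. P-values measure the spread between pigs, with 1 tissue sample per pig. Some genes that these rules name are not reported here.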

Additional observations from a re-analysis of the deposited data

Results flagged for a closer look

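Among the 5 uncastrated boars without Sustanon, the highest and the lowest pig were compared with their nearest neighbour by Dixon's test on log2 CPM in 41 named genes, and 4 stood apart; chance does so in about 1 in 20 groups. ITPR3 was low in Myodin pig 24, at 21.3 CPM with the next pig at 44.9 CPM (gap over range 0.812 on the log2 scale, as for the following genes). HSPA6 was low in the same pig, at 1.07 CPM against 2.92 CPM (0.779). TERF2 was low in Myodin pig 22, at 90.5 CPM against 114 CPM (0.73). PPT1 was low in untreated pig 27, at 38.0 CPM against 46.1 CPM (0.714).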

How the results depend on the processing

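The count of genes called between castrated Sustanon and uncastrated boars without Sustanon was 0 and remained 0 with RLE normalization, without the count filter, without the 3 libraries that went against their labels, with Myodin and untreated boars as separate levels, against Myodin boars alone, with limma, without a fold change threshold, and without any single pig (0 to 0). It was 5 with DESeq2 (NR4A1, HSPA6, APOLD1, IL15 and FCN2), 3 with the 8 libraries alone (NR4A1, HSPA6 and TPCN2), 1 against untreated uncastrated boars alone (ENSSSCG00000038557, log2 fold change -4.48) and 124 at an unadjusted p under 0.05 with the fold threshold. In the gene lists the count of 0 became 1 with DESeq2 and 21 at an unadjusted p under 0.05 with the fold threshold, and stayed 0 without any single pig. Alike genes ranged from 5861 (untreated uncastrated boars alone) to 8027 (limma), from 6011 to 6651 without single pigs, and were 4149 within 1.5-fold. The interferon median of -1.17 was 0.047 against untreated boars alone, 0.068 without Myodin pigs 23 and 24, a fit chosen after seeing the data, and -1.41 to -0.49 without single pigs; the cause was not tested. Log2 fold changes in this comparison were followed for 41 genes (the 16 of smallest p, the panel and the alike genes), with 738 values under alternatives. Of these, 702 counted as the same, 28 as moved and 8 passed the threshold. For the 16 genes of smallest p, the same meant an equal sign and side of the threshold, whatever the size of the move. For the other genes it meant a move of less than the standard error of the main log2 fold change. The sign differed in 64 values of 19 genes, none of them called and none of the 16 genes of smallest p. Sustanon in castrated boars gave 15 calls, 0 without the 3 libraries, 75 with DESeq2 and 0 to 20 without single pigs (0 without untreated castrated boar 14 or 15, 2 without Sustanon pig 2, 5 without Sustanon pig 1). Uncastrated against untreated castrated boars gave 67, 9, 138 and 8 to 107 in the same order (8 without untreated castrated boar 14, 21 without 15, 40 without 13, 41 without boar 27, 107 without Myodin boar 22). Sows against uncastrated boars, both with Sustanon, gave 1, 14, 24 and 0 to 1. Uncastrated boars with against without Sustanon gave 1, 2, 45 and 1 to 72 (72 without Myodin boar 23). The difference between the Sustanon effects in castrated and uncastrated boars gave 0 (595 genes at an unadjusted p under 0.05) and 11 with DESeq2, and Myodin against untreated uncastrated boars gave 2 and 33 with DESeq2. No paired analysis was possible because each pig number occurs in 1 group only.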
